A study of Mus musculus with 4 samples.

Results

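Synaptic vesicle release genes encode the presynaptic machinery that docks, primes and fuses transmitter vesicles, and 42 of them were followed here through the neurons of the mouse hippocampus. The members were a named list of synapsins, synaptotagmins and Doc2 proteins, SNARE proteins and their partners, complexins, the Munc13 and CAPS priming factors, proteins of the active zone and membrane proteins of the vesicle. All 42 were among the 20211 genes listed in each of the 4 libraries, out of 22989 genes listed in any.

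In a nerve terminal, a SNARE protein of the vesicle pairs with SNARE proteins of the presynaptic membrane, and the zippering of that complex drives fusion. Munc13 and CAPS proteins prime vesicles, RIM, Bassoon, Piccolo, ELKS and liprin-alpha proteins hold them at the active zone near calcium channels, complexins clamp and assist the SNARE complex, and synaptotagmins and Doc2 proteins bind calcium. Most steps are served by families of paralogs, and the paralogs a hippocampal neuron uses shape the speed and reliability of its synapses. Endocannabinoids lower release through CB1 receptors on the terminals.

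The series profiled nuclear RNA of hippocampus in 4 single-nucleus libraries, 1 per genotype: wild type, a total (global) MAGL knockout, an astrocyte-specific MAGL knockout and a neuron-specific MAGL knockout. MAGL, encoded by Mgll, is the lipase that breaks down the endocannabinoid 2-arachidonoylglycerol. The sources used here name no driver of the cell-type-specific deletions, no strain, no age and no number of animals behind a library. Values per library are printed in the order wild type, total, astrocyte and neuron knockout throughout, as UMIs of the gene per 1000000 UMIs of its class (CPM).

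The libraries held 8945 to 31243 barcodes and 81623644 to 193307038 UMIs, with median UMIs per barcode from 5456 in the library labelled total knockout to 8904 in the wild type. Scrublet marked 23.1% of the total knockout barcodes as doublets against 2.11% to 5.95% elsewhere, and 8646 to 23702 nuclei per library were kept. Pairs of libraries shared 108 to 466 barcodes, 1.21% to 4.63% of the smaller library. In the 7 neuronal classes compared, 34.2% to 58% of nuclei carried Y-linked UMIs and no Xist in the wild-type, astrocyte and neuron knockout libraries. In the 7 neuronal classes of the total knockout library this share was 86.8% to 95.8%. In oligodendrocytes it was 53.5% in the total knockout and 31.5% to 35.9% in the other libraries. In the total knockout library at most 1 nucleus in each of the dentate granule, CA1, CA2/CA3 and inhibitory classes carried Xist without Y-linked UMIs. Mgll stood at 102, 80.6, 104 and 106 CPM in excitatory neurons and at 120.3, 118, 135 and 121 CPM in inhibitory neurons. Where in Mgll the deletions lie is not stated, so this level does not check the labels.

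Nuclei were put into classes by detected markers, none of them a member, and a class name means only that its nuclei are like that type on those markers. The libraries held 6344 to 14376 excitatory and 1056 to 3090.0 inhibitory nuclei. Among the excitatory nuclei 1102 to 1813 were dentate granule-like, 1013 to 1297 CA1-like and 431 to 872 CA2/CA3-like. Among the inhibitory nuclei 253 to 580.0 were Pvalb-like (fast-spiking basket and related cells), 278 to 788 Sst-like (dendrite-targeting cells), 155 to 411 Lamp5-like (including neurogliaform cells) and 87 to 302 CCK-like (basket cells rich in CB1 receptor). The Sst class stood apart in its markers: its summed general inhibitory markers were 3766 to 4972 CPM against 7967 to 18594 CPM in the other inhibitory classes compared, and its dentate granule and CA1 marker lists reached 472 to 552 CPM and 493 to 613 CPM. The part of this in the Sst results was not tested. The CA2/CA3 marker list was low in the neuron knockout library. It summed to 2469, 2611, 2846 and 1954 CPM in the CA2/CA3 class and to 473, 488, 473 and 200 CPM in inhibitory neurons. In dentate granule neurons, at 339, 365, 408 and 383 CPM, that library was not the lowest. The part of this in the CA2/CA3 results was not tested. Oligodendrocytes, which are not neurons, are given beside some of the low values for comparison, and free RNA itself was not measured. Their median was 1232 to 3034 UMIs per nucleus, against 5134 to 16418 in the excitatory and 5476 to 10882 in the inhibitory classes.

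Across the 7 neuronal classes some members were nearly level and others were restricted to particular classes. For 14 of the 42 members the highest class mean was less than 2-fold above the lowest, and for 9 it was more than 10-fold above, where Cplx3, with 0 UMIs in the Sst class, was not counted. Of the 18247 genes tested in any class comparison, which include genes at lower levels, 37.9% and 15.3% did so. The flattest were Syp (synaptophysin, 1.22-fold), Unc13a (the main Munc13 of most synapses, 1.36-fold), Napb (beta-SNAP, which helps NSF take SNARE complexes apart, 1.36-fold), Syn1 (1.46-fold), Syt1 (1.51-fold) and Vamp2 (1.53-fold). The most uneven were Syt2 (225-fold), Sv2b (140.3-fold), Sv2c (103-fold), Cadps2 (63.6-fold), Rims3 (38-fold), Doc2b (25.3-fold), Cplx2 (11.6-fold), Unc13c (11.5-fold) and Syt7 (11-fold). Of the 42 members, 23 had a highest class that lay above the second class in all libraries, as did 22.3% of those genes; levels were not matched. The highest class was dentate granule for 10 members, Lamp5 for 9, CA2/CA3 and CCK for 7 each, Pvalb for 6, Sst for 2 and CA1 for 1, and the lowest was dentate granule for 13. These rankings order a gene's own levels and do not compare genes with each other. How often each class was highest or lowest over all genes was not counted. In oligodendrocytes 25 of the 42 members had a mean below that of their lowest neuronal class (all genes 23.9%). Syt11 was an exception, with 488, 673, 349 and 372 CPM there against class means of 155 to 241 CPM in neurons.

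**Figure D1:**
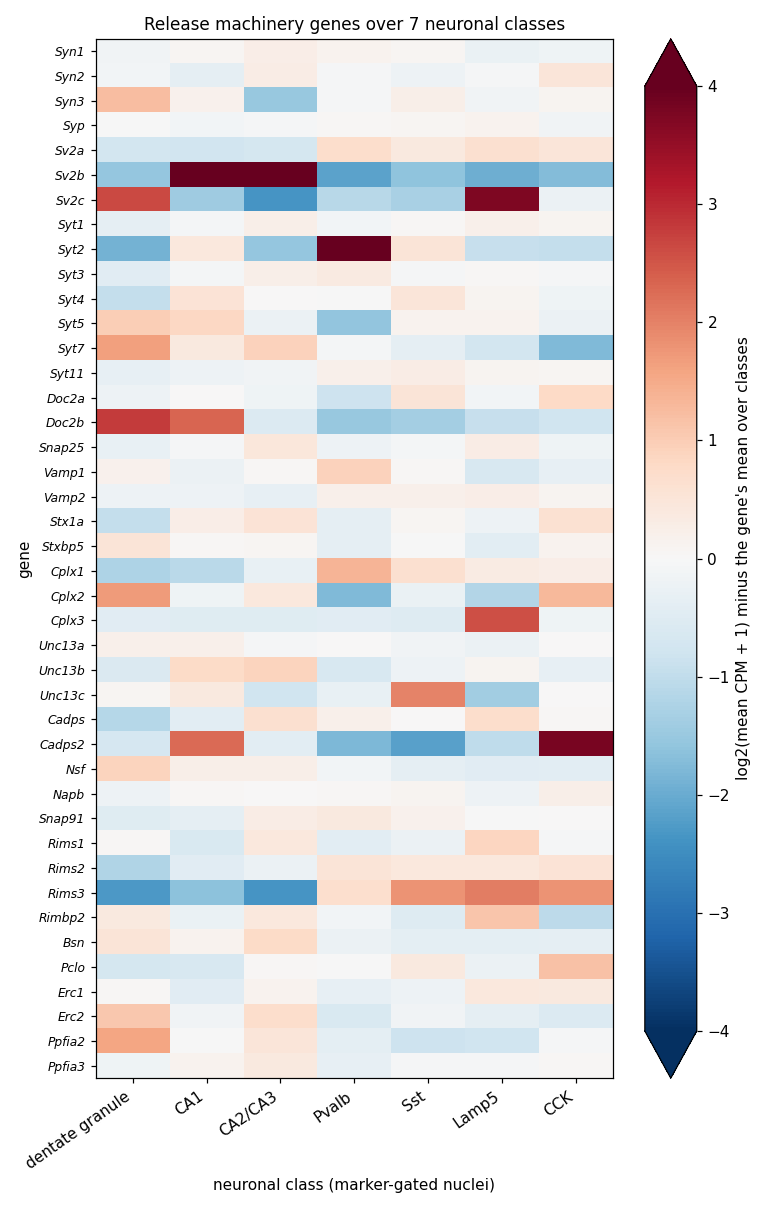
Mean level of the 42 genes (vertical axis, ordered by role) in 7 neuronal classes (horizontal axis), as log2(mean CPM + 1) over 4 libraries minus the gene's own mean over classes; red is higher, blue lower, and the colour scale ends at 4. Syt2 is red in the Pvalb class, Sv2b in CA1 and CA2/CA3, Sv2c in dentate granule and Lamp5 and Cadps2 in CA1 and CCK, whereas Syp, Unc13a and Napb are nearly white.

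Classes were then compared across the 4 libraries, each library giving 1 value per class, with edgeR's quasi-likelihood test and the library as a block. With this block, the tests rest on how class differences vary between libraries. The labels name 1 library per genotype, so this spread also holds genotype differences in them. A member was called with a Benjamini-Hochberg adjusted p under 0.05 over all genes tested and a fold of at least 1.5. In inhibitory against excitatory neurons 17 of 42 members were called, where 34.3% of all genes were: 6 higher (all genes 16.5%) and 11 lower (all genes 17.8%). Of the 6344 to 14376 excitatory nuclei per library in this comparison, only 2619 to 3894 reached the dentate granule, CA1 or CA2/CA3 class. In dentate granule against CA1 neurons 17 of 41 members were called, where 31.9% of all genes were: 8 higher (all genes 14.5%) and 9 lower (all genes 17.4%). In CA2/CA3 against CA1 neurons 19 of 41 members were called, where 22.1% of all genes were: 11 higher (all genes 11.3%) and 8 lower (all genes 10.8%). In dentate granule against CA2/CA3 neurons 22 of 41 members were called, where 33.8% of all genes were: 9 higher (all genes 15.4%) and 13 lower (all genes 18.4%). The median log2 fold changes of the members tested were -0.15, -0.12, 0.21 and -0.24 in this order, beside 0.02, 0.00, -0.01 and 0.00 for all genes.

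Each of the Pvalb, Sst, Lamp5 and CCK classes was set against the mean log level of the others. A gene high in 1 class can therefore be lower in another class that is not its lowest. Vip nuclei were too few and are in none of these references. For Pvalb neurons 10 of 40 members were called, where 18.2% of all genes were: 4 higher (all genes 8.78%) and 6 lower (all genes 9.46%). For Sst neurons 4 of 40 members were called, where 12% of all genes were: 2 higher (all genes 6.81%) and 2 lower (all genes 5.18%). For Lamp5 neurons 12 of 40 members were called, where 15.3% of all genes were: 6 higher (all genes 7.74%) and 6 lower (all genes 7.53%). For CCK neurons 9 of 40 members were called, where 15.4% of all genes were: 6 higher (all genes 8.18%) and 3 lower (all genes 7.26%). Median log2 fold changes were -0.14, 0.01, -0.04 and -0.09 for the members and -0.02, 0.00, 0.00 and 0.01 for all genes. By the adjusted p alone, with no limit on the fold, 32, 36, 33, 33, 28, 19, 27 and 19 members were called over the 8 comparisons, beside 64.1%, 61.6%, 47.9%, 63.2%, 40%, 25.2%, 30% and 27.5% of all genes. Cplx2 was called in 7 of the 8 comparisons and Syt2, Syt5, Sv2c and Cadps2 in 6 each. The members never called were Syn1, Syp, Vamp2, Syt11, Stxbp5 (tomosyn), Unc13a, Napb and Doc2a. Cplx3 was left untested among excitatory and among inhibitory classes, and Doc2a among inhibitory classes, for too few UMIs.

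SV2 proteins are glycosylated transporter-like proteins of the vesicle membrane that promote release and also serve as receptors for botulinum toxins. Because the Sv2 genes carry one of the sharpest class differences, the 250 bases before their RefSeq starts (GRCm38.p6) are shown 5′ to 3′, with each CG dinucleotide in capitals. Sv2a lies on the forward strand with the window chr3:96180977-96181226. Sv2b lies on the reverse strand with the window chr7:75309263-75309512, the first of 4 starts listed, and Sv2c on the reverse strand with the window chr13:96132578-96132827.
Sv2a: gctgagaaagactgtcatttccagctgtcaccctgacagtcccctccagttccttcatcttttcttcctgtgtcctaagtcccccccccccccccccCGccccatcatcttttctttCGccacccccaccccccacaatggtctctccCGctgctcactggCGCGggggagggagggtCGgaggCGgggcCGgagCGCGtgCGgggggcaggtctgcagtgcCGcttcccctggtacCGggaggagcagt
Sv2b: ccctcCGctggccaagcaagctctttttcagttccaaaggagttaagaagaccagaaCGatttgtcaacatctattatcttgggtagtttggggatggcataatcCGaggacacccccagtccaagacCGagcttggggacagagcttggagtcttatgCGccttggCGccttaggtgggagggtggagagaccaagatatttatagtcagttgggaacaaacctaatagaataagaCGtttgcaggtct
Sv2c: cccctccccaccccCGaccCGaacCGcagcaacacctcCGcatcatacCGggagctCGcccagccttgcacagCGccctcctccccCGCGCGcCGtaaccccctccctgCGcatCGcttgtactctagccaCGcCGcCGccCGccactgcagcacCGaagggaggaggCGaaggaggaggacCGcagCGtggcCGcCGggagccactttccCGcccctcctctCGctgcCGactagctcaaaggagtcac
The windows hold 13, 7 and 26 CG dinucleotides for Sv2a, Sv2b and Sv2c, where the median over the 27025 genes with a listed promoter was 6. Of the 42 members, 33 matched the promoter table, with a median of 16. The 12 matched members under 2-fold across classes had a median of 17. The 7 matched members above 10-fold fell into high and low values, with 44 for Cadps2, 30 for Syt2 and 26 for Sv2c but 7 for Sv2b, 7 for Cplx2, 6 for Rims3 and 6 for Unc13c. These counts are a description with no test.

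Sv2b stood at 393, 412, 420.1 and 383 CPM in CA1 and at 487, 522, 499 and 492 CPM in CA2/CA3, but at 2.35, 3.62, 7.87 and 9.52 CPM in dentate granule neurons. Oligodendrocytes held 8.55, 25.9, 15.9 and 0 CPM of Sv2b, more than dentate granule neurons in 3 libraries and less in the neuron knockout library, and the part of free RNA in these low values was not tested. The excitatory groups did not overlap, and Sv2b was 75.1-fold lower in dentate granule than in CA1 neurons (-6.23 ± 0.16 SE, edgeR adjusted p = 1.4e-16) and 93.3-fold lower than in CA2/CA3 (edgeR adjusted p = 8.2e-17). Inhibitory neurons as a whole held 2.88, 9, 5.03 and 3.91 CPM against 296, 323, 341 and 298 CPM in excitatory neurons, a 61.8-fold difference (-5.95 ± 0.18 SE, edgeR adjusted p = 7.8e-09).

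Sv2c was high where Sv2b was low among the excitatory classes. Dentate granule neurons held 74.2, 91.1, 97 and 102 CPM of Sv2c, CA1 neurons 3.48, 6.28, 3.73 and 4.58 CPM and CA2/CA3 neurons 1.99, 3.56, 1.65 and 0.299 CPM. Each dentate granule value lay above the CA1 and CA2/CA3 values, by 19.7-fold against CA1 (4.30 ± 0.13 SE, edgeR adjusted p = 2.8e-15) and 44.6-fold against CA2/CA3 (5.48 ± 0.17 SE, edgeR adjusted p = 3.6e-15). Among inhibitory neurons Sv2c was highest in the Lamp5 class, with 197, 231, 177 and 169 CPM against 0 to 22.8 CPM in the Pvalb, Sst and CCK classes (27.8-fold, 4.80 ± 0.14 SE, edgeR adjusted p = 8.8e-20). It was called 3.80-fold lower in Pvalb and 4.80-fold lower in Sst neurons than in their references, both of which include Lamp5. The Pvalb values were 1.44, 8.39, 6.88 and 6.63 CPM and the Sst values 3.46, 6.44, 5.64 and 4.33 CPM. Oligodendrocytes held 14, 5.19, 15.9 and 35.9 CPM of Sv2c, and the CA2/CA3 call against CA1 was lost with doublets kept (-0.82, edgeR adjusted p = 0.094).

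Sv2a, the paralog found at most synapses, was present in all classes and 1.87-fold higher in inhibitory neurons, at 172, 185, 161 and 176 CPM against 81.2, 101, 76.4 and 90.2 CPM (0.90 ± 0.04 SE, edgeR adjusted p = 9.5e-08). In oligodendrocytes Sv2a stood at 121, 156, 107 and 131 CPM, above the 3 excitatory classes. Syp, the vesicle protein often used to mark terminals, was called nowhere and lay between 92.7 and 177 CPM over the 7 classes and 4 libraries.

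**Figure D2:**
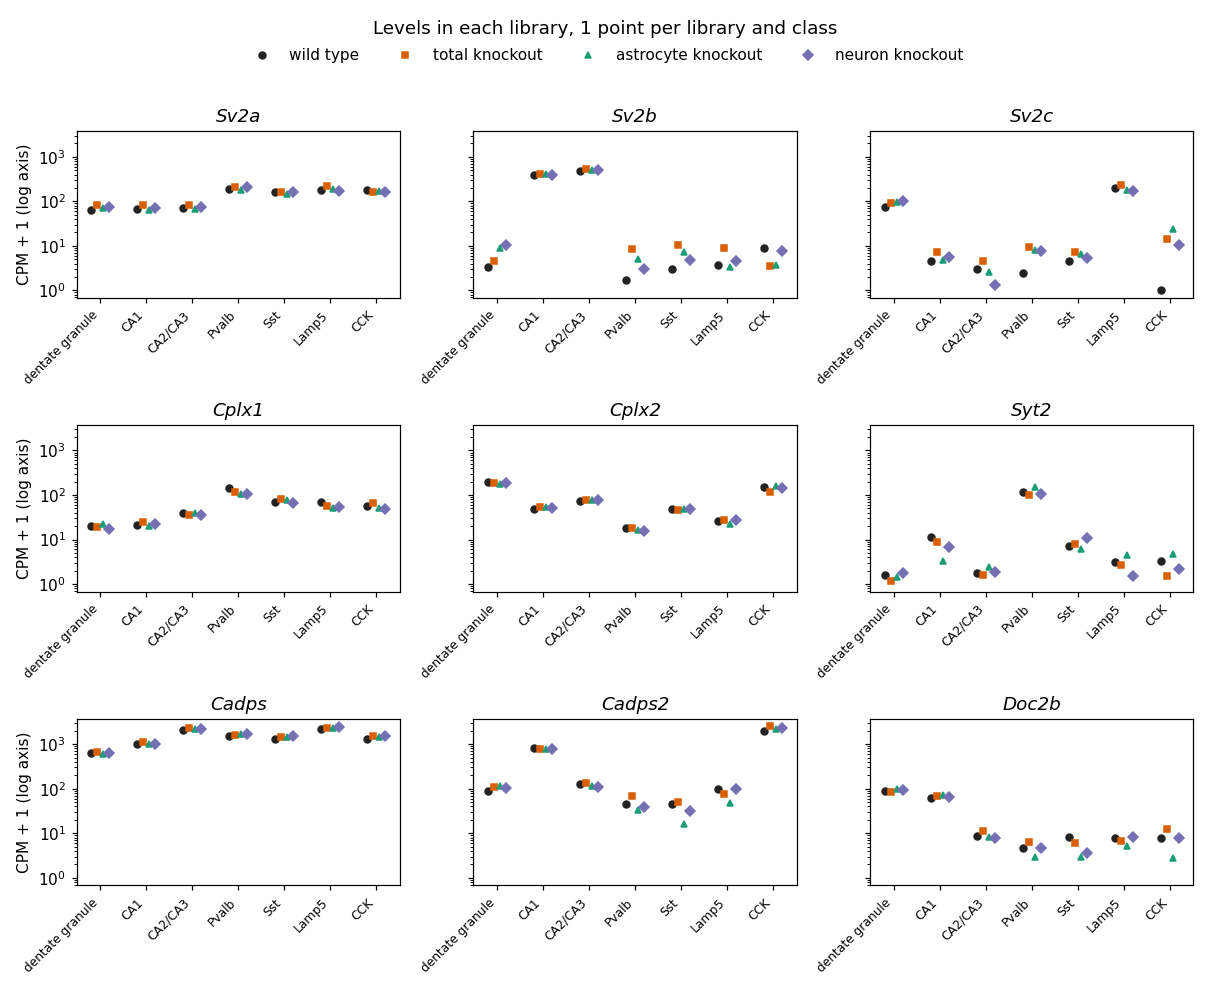
Levels of 9 genes (1 panel each) in 7 neuronal classes (horizontal axis) as CPM + 1 on a log axis, with 1 point per library and class coloured by genotype. Sv2b separates CA1 and CA2/CA3 from dentate granule, Sv2c is high in dentate granule and Lamp5, and Cadps2 reaches 1964 to 2526 CPM in the CCK class.

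Synapsins coat vesicles and hold the reserve pool. Syn1 was called in no comparison, with class means of 135 to 196 CPM. The gene Araf overlaps Syn1 on the opposite strand with 58% as many UMIs, and whether the counting used strand is not stated. Of the 42 members, 20 overlap a listed gene on the opposite strand. Beside Syn1, Syt2 and Doc2a, the overlapping genes with more than 10% as many UMIs were Colgalt1 for Unc13a (24.4%), Gm12339 for Doc2b (17.5%), 1700008O03Rik for Syt3 (17.4%), Timp3 for Syn3 (12.9%) and Tapbpl and Cd27 for Vamp1 (14.1% and 11.7%). Without strand, reads of a member and its partner cannot be told apart. Syn3 had the widest range of the family: dentate granule neurons held 211, 248, 257 and 241 CPM, CA1 neurons 102, 131, 109 and 115 CPM and CA2/CA3 neurons 37.3, 42.7, 31.6 and 27.2 CPM. The classes did not overlap, and Syn3 was 6.61-fold higher in dentate granule than in CA2/CA3 neurons (2.73 ± 0.08 SE, edgeR adjusted p = 1.6e-15) and 3.27-fold lower in CA2/CA3 than in CA1 (-1.71 ± 0.08 SE, edgeR adjusted p = 4.8e-12). Oligodendrocytes held 32 to 124 CPM of Syn3, and the part of free RNA in the CA2/CA3 values was not tested. Syn2 ran the other way between the pyramidal classes, 1.58-fold higher in CA2/CA3 at 673, 735, 771 and 762 CPM than in CA1 at 439.7, 472, 486 and 464 CPM. Among inhibitory classes Syn2 was higher in CCK neurons (1.51-fold, edgeR adjusted p = 1.1e-10), a call that was lost without the astrocyte knockout library, where the log2 fold change was 0.55, and with no filter on low counts (0.57).

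Among the calcium sensors, Syt1 is the fast sensor of most forebrain synapses and Syt2 that of rapid inhibitory and hindbrain synapses. Syt1 was abundant in each class, with means from 3237 CPM in dentate granule to 4898 CPM in CA2/CA3, and was called only between those classes, at 1.57-fold. Syt2 stood at 113, 101, 150.3 and 106 CPM in Pvalb neurons and at 0.505 to 9.67 CPM in the Sst, Lamp5 and CCK classes. The groups did not overlap and the difference was 39.9-fold (5.32 ± 0.13 SE, edgeR adjusted p = 6.7e-21). In inhibitory neurons as a whole Syt2 was 4.68-fold above excitatory neurons, at 34.9, 28.4, 42.6 and 28.2 CPM against 6.80, 7.38, 4.27 and 7.99 CPM (edgeR adjusted p = 8.5e-06). Among excitatory classes Syt2 stood at 0.628, 0.19, 0.456 and 0.819 CPM in dentate granule and 10.3, 8.05, 2.38 and 5.68 CPM in CA1 (13.1-fold lower in dentate granule, -3.71 ± 0.37 SE, edgeR adjusted p = 6.0e-08), where oligodendrocytes held 0 to 6.22 CPM. CA2/CA3 neurons held 0.819, 0.574, 1.47 and 0.898 CPM, 6.35-fold less than CA1 (edgeR adjusted p = 2.8e-06). Lamp5 neurons held 2.09, 1.67, 3.60 and 0.505 CPM and CCK neurons 2.25, 0.518, 3.64 and 1.15 CPM, both called lower than references that include Pvalb. With a gate that asks for 1 more marker, Syt2 had too few UMIs among excitatory classes to be tested.

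Syt2 shares its locus (chr1:134646677-134762593, forward strand, GENCODE M21 on GRCm38) with Ppp1r12b on the opposite strand, which had 76740 UMIs against 3620 for Syt2. The class pattern of Ppp1r12b was another one, with means of 231 CPM in Pvalb neurons, 151 CPM in Sst, 278 CPM in dentate granule and 213 CPM in CA1.

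Syt7, a high-affinity sensor tied to slow release and facilitation, was highest in dentate granule neurons, whose mossy fibre terminals facilitate strongly. Its values there were 411, 494, 475 and 492 CPM, against 181, 209, 183 and 205 CPM in CA1 and 34.8, 55.9, 42.8 and 37.2 CPM in CCK neurons. Oligodendrocytes held 14.7 to 202 CPM of Syt7. CA2/CA3 was the next class, with a mean of 283 CPM. The higher call in dentate granule than in CA2/CA3 (0.67 on the log2 scale) was lost at the gate with 1 more marker (0.56). A link to facilitation was not tested. Syt7 was 2.31-fold higher in dentate granule than in CA1 (1.21 ± 0.04 SE, edgeR adjusted p = 3.9e-15) and 2.76-fold lower in inhibitory than in excitatory neurons, at 96.5, 126, 115 and 122 CPM against 278, 315, 284 and 308 CPM (edgeR adjusted p = 2.0e-08). Among inhibitory classes it was 1.82-fold higher in Pvalb, at 127, 150.0, 127 and 161 CPM, and 2.61-fold lower in CCK neurons than in their references. Syt4, which is not a standard calcium sensor, was the member whose highest class was CA1, at 109, 99.6, 93.3 and 109 CPM against 36.6, 35.7, 30.7 and 37.6 CPM in dentate granule (3.06-fold, -1.61 ± 0.05 SE, edgeR adjusted p = 8.0e-15). Syt5 was lowest in Pvalb neurons, at 5.78, 9.70, 5.35 and 7.29 CPM against class means of 19.5 to 25.5 CPM in the other inhibitory classes (3.27-fold lower, edgeR adjusted p = 5.8e-08). Over all neurons Syt5 was 2.61-fold lower in inhibitory than in excitatory ones, at 21.1, 22.3, 19.5 and 18.8 CPM against 56.6, 48.2, 44.8 and 52 CPM (edgeR adjusted p = 1.4e-07). The excitatory classes differed, with a Syt5 mean of 19.3 CPM in CA2/CA3 against 41.5 CPM in CA1 (2.14-fold lower, edgeR adjusted p = 8.0e-11). The mean of all excitatory neurons, 50.4 CPM, lay above those of dentate granule (47.3 CPM), CA1 and CA2/CA3. The CA2/CA3 mean lay near the inhibitory mean of 20.5 CPM. Sst neurons held 33.6, 21.9, 23.7 and 22.9 CPM and Lamp5 neurons 23, 22.1, 31.8 and 24.8 CPM of Syt5. Their higher calls (0.66 and 0.73 on the log2 scale) were each lost when 1 library was left out, the log2 fold changes being 0.49 without the wild type and 0.55 without the astrocyte knockout. Syt3 was called once, 1.70-fold lower in dentate granule than in CA2/CA3.

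Doc2b is a soluble double C2 domain sensor linked to spontaneous and asynchronous release. Dentate granule neurons held 88.4, 82.8, 98.7 and 95.1 CPM and CA1 neurons 61.9, 66.7, 69.6 and 63.1 CPM, but CA2/CA3 neurons 7.84, 10.3, 7.25 and 7.04 CPM. CA2/CA3 did not overlap with the other excitatory classes and lay 8.06-fold below CA1 (-3.01 ± 0.09 SE, edgeR adjusted p = 6.5e-15) and 10.8-fold below dentate granule (edgeR adjusted p = 2.3e-16). Inhibitory neurons held 5.38, 6.27, 3.07 and 4.05 CPM, 10.5-fold less than excitatory neurons at 45.8, 44.4, 52.2 and 48.6 CPM (-3.39 ± 0.14 SE, edgeR adjusted p = 5.3e-08). Oligodendrocytes held 14, 0.865, 23.8 and 49 CPM, from 2 to 18 UMIs, which is below CA2/CA3 and inhibitory neurons in the total knockout library and above both in the other 3. Doc2a was sparse in each class, with class means of 0.46 to 3.43 CPM, and Ino80e on the opposite strand had 324% of its UMIs.

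Snap25, the membrane SNARE of nearly all central synapses, was called only between dentate granule and CA2/CA3, at 664, 734, 692 and 690.4 CPM against 1122, 1182, 1159 and 1189 CPM (1.74-fold lower, -0.80 ± 0.03 SE, edgeR adjusted p = 1.9e-13). Vamp2, the main vesicle SNARE of the forebrain, was called nowhere, and its 35 to 52.2 CPM in oligodendrocytes overlapped its 25.5 to 56.3 CPM in neuronal classes. Vamp1, the paralog of fast-spiking and motor neurons, was highest in Pvalb neurons, at 20.9, 17.6, 25.2 and 27.2 CPM against 5 to 14 CPM in the other inhibitory classes compared (2.43-fold, 1.28 ± 0.14 SE, edgeR adjusted p = 1.3e-08). Oligodendrocytes held 7, 10.8, 11.9 and 29.4 CPM of Vamp1, from 3 to 25 UMIs, above Pvalb neurons in the neuron knockout library and below them in the other 3. Its Lamp5 level was 1.89-fold lower than the reference, at 5.58, 5, 11.4 and 6.57 CPM (edgeR adjusted p = 5.2e-04).

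Stx1a, the syntaxin partner of Snap25, was lowest in dentate granule at 12.2, 13, 13.7 and 12.3 CPM against 32.2, 32.2, 28.3 and 32.4 CPM in CA1 (2.55-fold, edgeR adjusted p = 1.3e-11). It was 3.07-fold below CA2/CA3 at 40.9, 36.2, 34.6 and 39.4 CPM (edgeR adjusted p = 1.3e-12), and among inhibitory neurons 1.76-fold higher in CCK neurons at 41.6, 33.7, 38.3 and 47.5 CPM than in the other inhibitory classes (edgeR adjusted p = 3.9e-06). Nsf, the ATPase that recycles SNARE complexes, was highest in dentate granule, at 837, 829.9, 806 and 832 CPM, and 1.67-fold lower in inhibitory than in excitatory neurons.

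Complexins differed in opposite directions. Cplx1 was higher in inhibitory neurons, at 87.1, 77.1, 70.5 and 69.8 CPM against 28.2, 30.1, 28.3 and 27.4 CPM in excitatory neurons, without overlap (2.49-fold, 1.32 ± 0.05 SE, edgeR adjusted p = 2.7e-08). Pvalb neurons were highest at 143, 113, 106 and 107 CPM, 1.89-fold above the other inhibitory classes (edgeR adjusted p = 3.5e-11). Among excitatory classes Cplx1 was 1.76-fold higher in CA2/CA3 at 39.2, 34.9, 39.5 and 35 CPM than in CA1 at 20.2, 24.2, 19.2 and 21.4 CPM (edgeR adjusted p = 7.9e-08). Cplx2 was lower in inhibitory neurons as a whole (1.88-fold) and was called in each comparison but that of the Sst class. Its call for CA2/CA3 against CA1 (0.59) lay near the 1.5-fold limit and was lost without the wild-type library (0.58), with no filter on low counts (0.58) and with doublets kept (0.54). Dentate granule neurons held 196, 189, 179.9 and 186 CPM of it and CA1 neurons 48.3, 52.5, 52.1 and 50.4 CPM (3.56-fold, 1.83 ± 0.04 SE, edgeR adjusted p = 2.2e-17), and CA2/CA3 neurons 73.6, 78.2, 78.2 and 75.6 CPM (2.37-fold, edgeR adjusted p = 6.3e-15). Among inhibitory neurons CCK cells held 152, 113, 162 and 144 CPM and Pvalb cells 17.3, 17.3, 15.3 and 14.6 CPM. The CCK class was 5.32-fold higher (edgeR adjusted p = 2.7e-18) and the Pvalb class 3.43-fold lower (edgeR adjusted p = 2.0e-13) than the other inhibitory classes compared. Vip nuclei, too few for a comparison, were not among these, and their Cplx2 levels, given under other observations, overlapped those of CCK cells. Oligodendrocytes held 6.05 to 35.7 CPM of Cplx2, a range that includes the Pvalb values. Cplx3, best known from retinal ribbon synapses, stood at 9.77, 9.16, 10.2 and 1.52 CPM in Lamp5 neurons and had 0 UMIs in the Sst class of all libraries. Its call as higher in inhibitory neurons, at 1.63, 1.42, 1.58 and 0.426 CPM against 0.614, 0.399, 0.279 and 0.509 CPM (1.38 ± 0.37 SE, edgeR adjusted p = 0.0090), was lost without the total knockout library (1.2, edgeR adjusted p = 0.056).

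Among the priming factors, Unc13a had class means of 90.2 to 122 CPM. Unc13b, which encodes Munc13-2, was 2.23-fold lower in inhibitory neurons, at 67.1, 67.5, 65.6 and 69.8 CPM against 132, 145, 135 and 151 CPM (-1.16 ± 0.04 SE, edgeR adjusted p = 1.1e-08), and 2.66-fold lower in dentate granule than in CA1. Dentate granule neurons held 52.2, 55.4, 51.9 and 68.6 CPM of Unc13b and CA2/CA3 neurons 157, 164, 159 and 160.0 CPM (2.94-fold, edgeR adjusted p = 2.1e-14). Unc13c, best known from cerebellar granule cells, was highest in Sst neurons, at 86.6, 113, 64.7 and 87 CPM against 2.79 to 31.9 CPM in the Pvalb, Lamp5 and CCK classes (6.03-fold, 2.59 ± 0.16 SE, edgeR adjusted p = 3.2e-13). Lamp5 neurons held 2.79, 20.4, 4.20 and 3.03 CPM, with the total knockout library above the other 3 (3.66-fold lower than the reference, edgeR adjusted p = 6.5e-06). Oligodendrocytes held 7.78 to 27.2 CPM of Unc13c. Unc13c was also called 2.28-fold lower in CA2/CA3 than in CA1, but at the gate with 1 more marker the log2 fold change was -0.14 (edgeR adjusted p = 0.58).

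Cadps and Cadps2 encode the CAPS proteins, which prime vesicles and dense-core granules. Cadps was abundant throughout and lowest in dentate granule, at 618, 664, 599.8 and 644 CPM against 2065, 2267, 2165 and 2187 CPM in CA2/CA3 (3.57-fold, -1.84 ± 0.03 SE, edgeR adjusted p = 9.8e-19). CA1 lay between at 1010.5, 1106, 1030.4 and 1032 CPM, 2.08-fold below CA2/CA3 (edgeR adjusted p = 3.5e-15). Cadps2 was high in CCK and CA1 neurons. CCK neurons held 1964, 2526, 2186 and 2317 CPM, and the Pvalb, Sst and Lamp5 classes 15.4 to 100 CPM (45.9-fold, 5.52 ± 0.11 SE, edgeR adjusted p = 4.1e-23). Vip nuclei, too few for a comparison and not in this reference, lay between these levels, with values given under other observations. Pvalb neurons held 43.3, 68.5, 32.1 and 38.4 CPM, Sst neurons 45.4, 49.9, 15.4 and 30.8 CPM and Lamp5 neurons 99, 75.8, 46.2 and 100 CPM, each called lower than a reference that includes CCK. Oligodendrocytes held 46.3 to 199 CPM of Cadps2, and the part of free RNA in the low values was not tested. Among excitatory neurons CA1 held 810.4, 791, 786 and 769 CPM, dentate granule 88.6, 106, 112 and 101 CPM and CA2/CA3 124, 130.4, 115 and 109 CPM. CA1 did not overlap with the others, and Cadps2 was 8.09-fold lower in dentate granule (-3.02 ± 0.06 SE, edgeR adjusted p = 7.3e-18) and 6.61-fold lower in CA2/CA3 (edgeR adjusted p = 1.2e-16). Between inhibitory and excitatory neurons as wholes Cadps2 was not called (0.04 ± 0.10 SE, edgeR adjusted p = 0.77).

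At the active zone, Rims1, which encodes the scaffold RIM1, was highest in Lamp5 neurons at 2965, 2857, 3208 and 2731 CPM (2.16-fold above the other inhibitory classes, 1.11 ± 0.04 SE, edgeR adjusted p = 2.4e-17) and 2.08-fold higher in CA2/CA3 at 2117, 2255, 2210.0 and 2249.9 CPM than in CA1 at 1033, 1088, 1104 and 1010.2 CPM (edgeR adjusted p = 7.6e-15). Rims2 was 1.58-fold higher in inhibitory neurons, at 1351, 1304, 1289.6 and 1303 CPM against 810.3, 799.7, 726 and 770.2 CPM (edgeR adjusted p = 6.2e-07). Rims3, a short RIM, was 2.25-fold higher in inhibitory neurons, at 38.3, 31.7, 31.9 and 34.1 CPM against 17.8, 13.1, 10.4 and 15.9 CPM (1.17 ± 0.08 SE, edgeR adjusted p = 1.7e-06). In the 3 excitatory classes, which leave out many excitatory nuclei, it stood at 0.0917 to 3.56 CPM, beside 0.432 to 7.94 CPM in oligodendrocytes. The lower calls of Rims3 in dentate granule and CA2/CA3 against CA1 (-1.07 and -1.15 on the log2 scale) were lost without the neuron knockout library (-0.94 and -0.89, edgeR adjusted p = 0.054 and 0.098). They were lost as well without the library block, at folds of like size (-1.02 and -1.15, edgeR adjusted p = 0.059 and 0.064). DESeq2 also lost the dentate granule call (-1.01, DESeq2 adjusted p = 0.057), and at the gate with 1 more marker Rims3 was not tested in either comparison. With doublets kept, where both calls were lost, the values were -0.51 and -0.67. Rimbp2, which ties RIM to calcium channels, was 3.21-fold higher in Lamp5 neurons at 483, 491, 541 and 526 CPM (1.68 ± 0.05 SE, edgeR adjusted p = 4.4e-19) and 2.30-fold lower in CCK neurons at 97.8, 106, 126 and 126 CPM (edgeR adjusted p = 2.3e-13).

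Pclo (Piccolo) and Bsn (Bassoon) encode the paired giant scaffolds. Pclo was highest in CCK neurons at 1725, 2104, 2238 and 1831 CPM (2.20-fold, 1.14 ± 0.04 SE, edgeR adjusted p = 3.6e-17), and Bsn was 1.81-fold lower in inhibitory than in excitatory neurons at 109, 108, 117 and 112 CPM against 187, 179, 196 and 196 CPM (edgeR adjusted p = 7.7e-08). Both were higher in CA2/CA3 than in CA1, Pclo 1.62-fold and Bsn 1.55-fold. Erc2 (an ELKS family protein) stood at 2984, 3062, 3206 and 3182 CPM in dentate granule against 1225, 1344, 1427 and 1322 CPM in CA1 (2.25-fold, edgeR adjusted p = 2.4e-16). CA2/CA3 neurons held 2369.7, 2408, 2501 and 2423 CPM of Erc2, 1.82-fold above CA1 (edgeR adjusted p = 4.7e-14). Ppfia2 (liprin-alpha-2) stood at 3293, 3446, 2952 and 3245 CPM in dentate granule against 1052, 1123, 1052 and 1072 CPM in CA1 (2.89-fold, 1.53 ± 0.03 SE, edgeR adjusted p = 1.2e-17). Both were lower in inhibitory neurons, Erc2 1.82-fold and Ppfia2 2.21-fold. Erc1, the widely expressed ELKS gene, was called once, at 1.52-fold between CA2/CA3 and CA1 (log2 fold change 0.60), and this call was lost without the wild-type library (0.58), at the gate with 1 more marker (0.58) and with doublets kept (0.58). Ppfia3 was called once as well, 1.56-fold lower in dentate granule than in CA2/CA3, and Snap91 (AP180, of clathrin coats) was 1.61-fold higher in CA2/CA3 than in CA1.

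**Figure D3:**
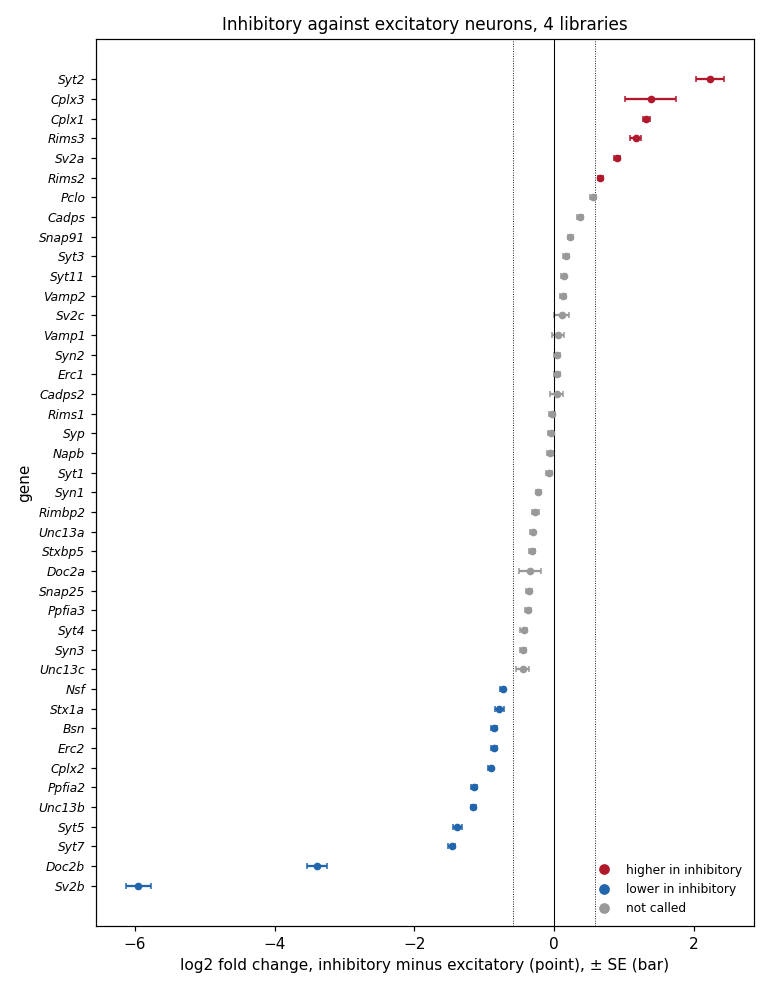
Log2 fold change of the 42 genes (vertical axis, sorted) in inhibitory minus excitatory neurons (horizontal axis), points with ± 1 SE from edgeR over 4 libraries and dotted lines at 1.5-fold. The 11 genes from Sv2b at -5.95 to Nsf at -0.74 were called lower and the 6 from Rims2 at 0.66 to Syt2 at 2.23 higher.

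A further list of 52 genes of vesicle release and recycling (other synaptotagmins, Rab3 proteins, synaptoporin, scaffold and endocytic genes) was counted beside the members. In inhibitory against excitatory neurons 21 of 50 tested were called (all genes 34.3%), 10 higher and 11 lower, with the largest log2 fold changes in Syt6 (3.74), Rab3b (3.09), Syt10 (-2.89) and Otof (-1.69). In dentate granule against CA1, 16 of 48 were called (all genes 31.9%), 8 higher and 8 lower, led by Stxbp6 (6.60), Synpr (5.98), Syt9 (-3.85) and Rab3c (-2.94). For CA2/CA3 against CA1 the count was 17 of 48 (all genes 22.1%), 9 higher and 8 lower. For dentate granule against CA2/CA3 it was 20 of 48 (all genes 33.8%), 8 higher and 12 lower. Among inhibitory classes the counts were 12 of 46 for Pvalb (5 higher and 7 lower), 10 of 46 for Sst (5 higher and 5 lower), 11 of 46 for Lamp5 (6 higher and 5 lower) and 10 of 46 for CCK (5 higher and 5 lower). The shares of all genes in this order were 18.2%, 12%, 15.3% and 15.4%, and levels were not matched. Synaptoporin (Synpr), a vesicle protein related to synaptophysin, was higher in Sst neurons (2.22) and lower in Lamp5 (-2.56) and Pvalb (-1.82) neurons, and Syt6 and Syt9 were higher in CCK neurons (5.41 and 3.26). Levels of the genes named from this list are not given here.

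Knockout libraries could only be set beside the wild-type library. With 1 library per genotype no test between genotypes was possible, and the 3 comparisons share the wild-type library, so a feature of that library appears in all of them. In the 7 neuronal classes 86.8% to 95.8% of total knockout nuclei carried Y-linked UMIs and no Xist, against 34.2% to 45.3% in wild type. In ratios over all nuclei of that library, genotype and sex can therefore not be told apart. Ratios of CPM are given on the log2 scale with exact binomial intervals at 95% that cover counting error only. They were taken in dentate granule, CA1, CA2/CA3 and all inhibitory neurons where a member had 100 UMIs or more in total, which left 156 pairs of gene and class. Beyond 1.2-fold lay 30 pairs (19.2%; all genes 29.9%), 22 higher (14.1%; all genes 9.53%) and 8 lower (5.13%; all genes 20.4%) in the total knockout library. In the astrocyte knockout library there were 26 pairs (16.7%; all genes 29.3%), 12 higher (7.69%; all genes 10.1%) and 14 lower (8.97%; all genes 19.2%). In the neuron knockout library there were 25 pairs (16%; all genes 30.3%), 16 higher (10.3%; all genes 11.2%) and 9 lower (5.77%; all genes 19.1%). Counted in both directions together, the members' shares lay below those of all genes in each library. All genes with 100 UMIs or more in a class were counted and levels were not matched. Counting error is wider at low counts, so the lower shares do not show that the members were steadier than other genes. Toward lower levels this held in each library, but toward higher levels the share of the members lay above that of all genes in the total knockout library and below it in the astrocyte and neuron libraries. Beyond 1.5-fold lay 6, 8 and 2 of the 156 pairs in the 3 libraries in this order, where 7.87%, 6.34% and 7.3% of all genes' pairs did. Per class and library the median log2 ratio of the members lay between 0.01 and 0.11, and that of all genes between -0.06 and -0.02.

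**Figure D4:**
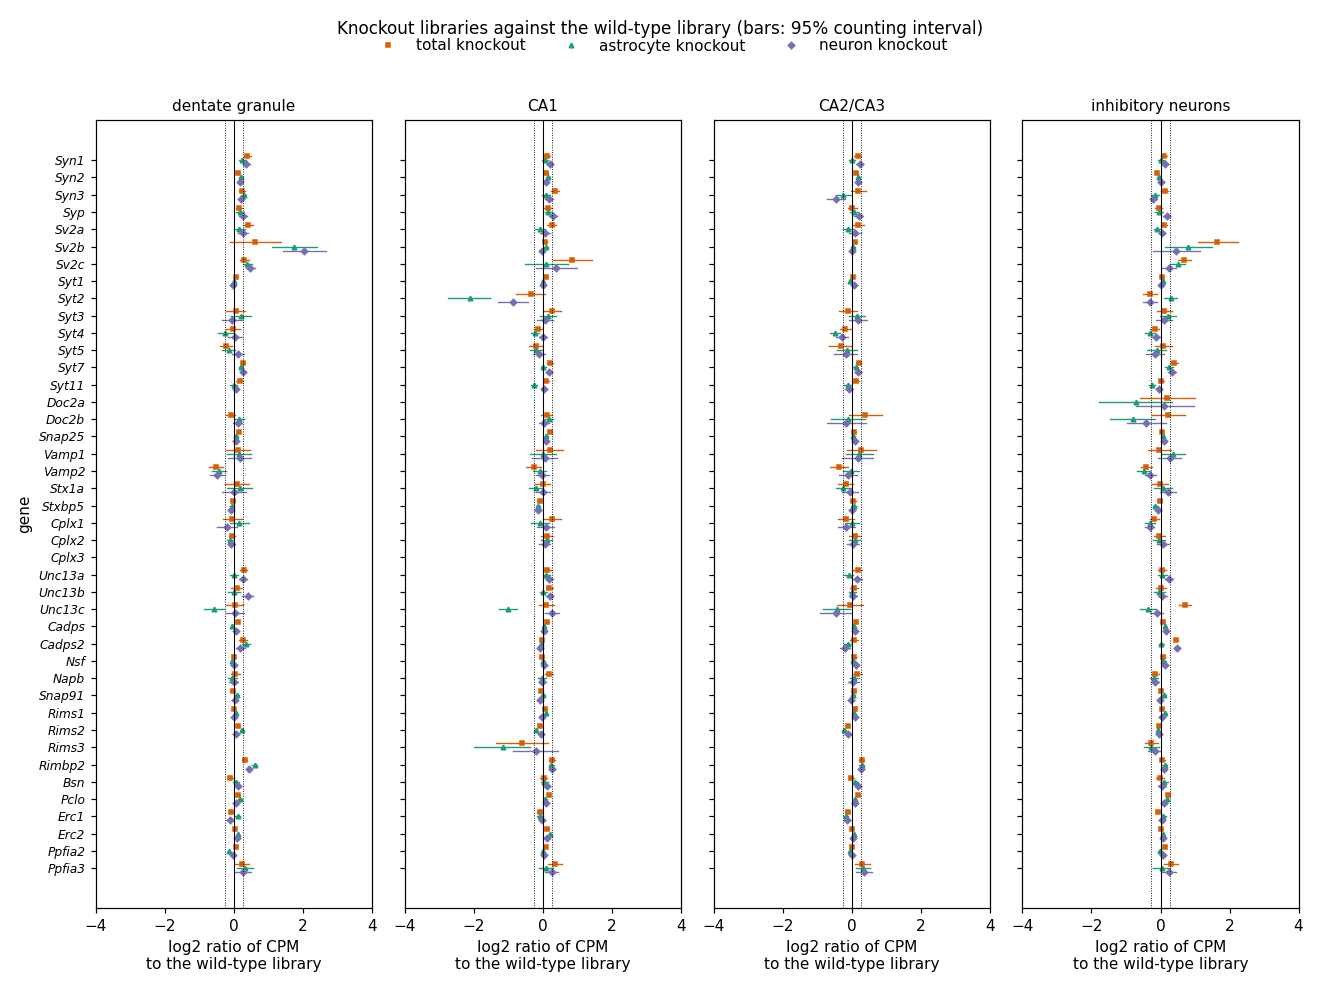
Log2 ratio of CPM to the wild-type library (horizontal axis) for each gene (vertical axis) in 4 classes (panels), 1 point per knockout library with its 95% counting interval and dotted lines at 1.2-fold; genes under 100 UMIs in a class have no point. Most points lie between the dotted lines, and those outside include Sv2b in dentate granule and inhibitory neurons, Syt2, Unc13c and Rims3 in CA1 and Vamp2 in dentate granule.

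The 3 ratios of a gene share the wild-type value, so their values are given side by side and no agreement between them is counted. Vamp2, Rimbp2, Ppfia3 and Sv2c were chosen for lying beyond 1.2-fold on 1 side of wild type in each knockout library. Vamp2 was lower in dentate granule neurons, at 42.4 CPM in wild type and 29.6, 31.4 and 30.2 CPM in the knockout libraries, log2 ratios of -0.52, -0.43 and -0.49. It was lower in inhibitory neurons as well, at 53.5 CPM against 40.2, 38.2 and 43.7 CPM, whereas in CA1 the ratios were -0.26, -0.09 and -0.01. In oligodendrocytes Vamp2 stood at 35 CPM in wild type and 38.1, 47.6 and 52.2 CPM in the others. Rimbp2 was higher in dentate granule neurons at 301, 367 and 327 CPM against 242 CPM in wild type, with log2 ratios of 0.32, 0.60 and 0.44. In CA2/CA3 Rimbp2 stood at 336, 338 and 333 CPM against 275 CPM, and Ppfia3 at 45.1, 46 and 46.6 CPM against 36.6 CPM. Sv2c was higher in dentate granule at 91.1, 97 and 102 CPM against 74.2 CPM. Each of these is a difference between 1 wild-type library and the others, and genotype and library cannot be told apart.

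Syt2 in CA1 was lower in all 3 knockout libraries, at 8.05, 2.38 and 5.68 CPM against 10.3 CPM in wild type, from 82, 30 and 72 UMIs against 136. The log2 ratio of the astrocyte knockout library was -2.11 (interval -2.73 to -1.53), and it was -2.45 in nuclei with Y-linked UMIs and no Xist. Those of the total (-0.35, interval -0.77 to 0.05) and neuron (-0.86, interval -1.29 to -0.43) libraries were 0.18 and -0.26 at the gate with 1 more marker. In inhibitory neurons the astrocyte library was higher, at 42.6 against 34.9 CPM, and within the Pvalb class at 150.3 against 113 CPM.

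Unc13c ratios differed with the nuclei counted. In CA1 the astrocyte knockout library held 15 CPM against 30.0 CPM in wild type (log2 ratio -1.0, interval -1.26 to -0.75), but among nuclei with Y-linked UMIs and no Xist the ratio was -0.05, at 23.7 against 24.5 CPM. Nuclei with Xist and no Y-linked UMIs held 7.02 against 30.8 CPM. In inhibitory neurons the total knockout library held 58.9 CPM of Unc13c against 35.9 CPM in wild type (0.71, interval 0.54 to 0.89), and 57.5 against 24.1 CPM in nuclei with Y-linked UMIs and no Xist (1.25). The ratio was 0.38 within the Sst class, 0.29 within Pvalb, 0.55 within CCK and 2.87 within Lamp5. Nuclei with markers of striatal medium spiny neurons, kept out of the inhibitory class, numbered 349 in that library and 34 in wild type and held 632 and 413 CPM of Unc13c. The medium spiny marker list summed to 890.1 CPM in the inhibitory class of the total knockout library and 926 CPM in that of the wild type.

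Sv2b, Rims3 and Sv2c gave large ratios at low levels. The log2 ratios of Sv2b in the dentate granule class were above 0 in the total (0.62, interval -0.11 to 1.36), astrocyte (1.74, interval 1.10 to 2.41) and neuron (2.02, interval 1.41 to 2.66) libraries. In the inhibitory class the ratios were 1.64 (interval 1.07 to 2.26), 0.80 (interval 0.13 to 1.5) and 0.44 (interval -0.23 to 1.13), and either class had 30 wild-type UMIs. Within a library these levels lie below Sv2b in oligodendrocytes, except in the neuron knockout library, whose oligodendrocytes held 0 UMIs of Sv2b. With doublets kept, the dentate granule ratio of the neuron library was 1.08. Rims3 in CA1 rested on 47 wild-type UMIs, with ratios of -0.59 (interval -1.37 to 0.14) in the total and -1.17 (interval -2.0 to -0.38) in the astrocyte library, and with doublets kept the first became 0.24. Sv2c in CA1 was higher in the total library at 6.28 against 3.48 CPM (0.85, interval 0.28 to 1.43).

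Ratios over all inhibitory neurons also mix classes. Sv2c was higher in the astrocyte library (0.51, interval 0.30 to 0.72), but within Lamp5, its highest inhibitory class, the ratio was -0.16. Cadps2 was higher in the neuron library at 421 against 302 CPM (0.48, interval 0.42 to 0.54). CCK nuclei made up 10.9% of its inhibitory nuclei against 8.24% in wild type, the Cadps2 ratio within CCK nuclei was 0.24, and among nuclei with Y-linked UMIs and no Xist it was 0.04. Cplx1 stood at 87.1 CPM in wild type and 77.1, 70.5 and 69.8 CPM in the knockout libraries, while Pvalb nuclei, its highest class, made up 24% of the inhibitory nuclei in wild type and 18.8%, 21.6% and 19.8% in the others. Within the Pvalb class Cplx1 was at 143 CPM in wild type and 113, 106 and 107 CPM in the knockout libraries. The within-class ratios were chosen after seeing the data.

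Among excitatory classes, Syn3 in CA2/CA3 was lower in the neuron library at 27.2 against 37.3 CPM (-0.45, interval -0.73 to -0.19), and the ratio was -0.15 at the gate with 1 more marker. The summed CA2/CA3 markers of this class were lower in that library as well, and their part in the ratio was not tested. Snap25 in CA1 stood at 764, 888, 817 and 808 CPM, Syt1 at 3883, 4159, 3864 and 3918 CPM and Unc13a at 113, 124, 122 and 129.6 CPM, each within 1.2-fold of wild type in all 3 knockout libraries.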

How the data were processed

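Raw UMI counts were deposited, 1 matrix of genes by barcodes per library. Per the submitters' processing notes, Cell Ranger ARC 2.0.0 and mm10 were used, with no role stated. The members, the lists and the comparisons were chosen with earlier results of these data known.

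Nuclei with at least 500 genes and at most 5% mitochondrial UMIs were kept and doublets were removed with Scrublet in scanpy 1.11.5 at an expected 0.8% per 1000 barcodes. A lineage needed 3 of 8 markers and a lead of 2 over each other lineage, an excitatory class 4 of 8 with a lead of 2, and an inhibitory class 2 of 6 with a lead of 1. Nuclei with 4 medium spiny markers were set aside. The marker numbers were chosen after marker detection was seen, and 1098 to 2139 excitatory and 111 to 674 inhibitory nuclei per library lay at the lowest number let in. Between 2619 and 3894 excitatory nuclei per library reached a class, and the rest counted only among excitatory neurons. Sums of UMIs for each class in a library were tested with edgeR 4.0.16 in R 4.3.3 (TMM, filterByExpr, quasi-likelihood, class and library as terms), a procedure tested on simulated data. Libraries are the replicates. Whether they came from several animals is not stated, so p-values measure the spread of class differences between these 4 libraries. In these nuclear sums, fewer cells of a type within a class and less RNA per cell cannot be told apart.

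Every member was counted, and values are given per comparison for up to 4 called members with the largest fold each way, for 3 per knockout library each way, and for others as ranges or by role. The alternatives were DESeq2 1.42.0, other size factors, no filter, no library block, each library left out, a gate with 1 more marker, doublets kept, only nuclei with Y-linked UMIs and no Xist, 2000 UMIs per nucleus, genes with 20 UMIs, TMM-scaled CPM and other folds. The Vip inhibitory class had fewer than 50 nuclei in 2 libraries, so its comparison was not run. Gene positions come from GENCODE M21 and promoters from RefSeq.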

Additional observations from a re-analysis of the deposited data

Results flagged for a closer look

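Syt2 stood out because the astrocyte knockout library moved in opposite directions in different classes: the log2 ratio to wild type was -2.11 in CA1 and 0.29 in inhibitory neurons, with counting intervals that exclude 0 on both sides. Unc13c in the neuron knockout library did the same, at 0.27 in CA1 and -0.45 in CA2/CA3. With 1 library per genotype the difference between the classes was not tested in either case.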

How the results depend on the processing

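Among the comparisons of classes, more members were called by the adjusted p alone, with no 1.5-fold limit. They numbered 32 for inhibitory against excitatory neurons, 36 for dentate granule against CA1, 33 for CA2/CA3 against CA1 and 33 for dentate granule against CA2/CA3. For Pvalb, Sst, Lamp5 and CCK neurons they numbered 28, 19, 27 and 19, so that these counts depend on the fold limit. The main counts were 17, 17, 19, 22, 10, 4, 12 and 9 over the 8 comparisons, in the order of the report. The gate with 1 more marker gave 17, 14, 16, 21, 15, 5, 13 and 10, kept doublets 17, 14, 15, 22, 11, 4, 11 and 9, no filter 17, 17, 18, 22, 11, 5, 13 and 10 and DESeq2 17, 16, 19, 22, 10, 4, 12 and 9. No call turned direction under DESeq2, other size factors, no filter, no block, the stricter gate or kept doublets. With 1 library left out, counts ran from 16 to 17, 16 to 18, 18 to 20 and 22 to 22 in the 4 comparisons among the larger classes, and from 10 to 12, 3 to 5, 10 to 13 and 9 to 10 for Pvalb, Sst, Lamp5 and CCK neurons. Without the library as a replicate block the counts were 17, 16, 18, 22, 10, 4, 12 and 9, the pairing being that the classes compared come from the same library, with no nucleus in more than 1 of them. Apart from the adjusted p alone, shares of all genes are not given for these alternatives. Changes in the members' counts can therefore not be set against changes over all genes. No paired analysis was possible between genotypes because each has 1 library and no replicate numbers. Past 1.5-fold instead of 1.2-fold lay 6, 8 and 2 pairs of gene and class in the total, astrocyte and neuron knockout libraries, with the shares of all genes given in the report. The main counts past 1.2-fold, of 156 pairs, were 30, 26 and 25 in this order. Among only nuclei with Y-linked UMIs and no Xist they were 35, 30 and 35 of 153. The stricter gate gave 25, 26 and 21 of 154, and kept doublets 33, 30 and 27 of 158. With 2000 UMIs per nucleus they were 30, 34 and 27 of 145. Genes with 20 UMIs gave 36, 31 and 32 of 165, and TMM-scaled CPM 34, 27 and 32 of 156. Shares of all genes are not given for these settings. The sign turned for Syt2 in CA1 of the total library at the stricter gate (0.18) and for Rims3 there with doublets kept (0.24). Within inhibitory classes, a setting chosen after seeing the data, it turned for Sv2b of the total library in CCK nuclei (-1.60), Sv2c of the astrocyte library in Lamp5 nuclei (-0.16) and Cadps2 of the neuron library in Pvalb (-0.17) and Sst (-0.56) nuclei. The cause was not tested. Cplx3, Doc2a, Rims3 and Syt2 had fewer than 20 UMIs in their lowest neuronal class of each library, which limits the precision of those values. The same holds for Vamp1 in the Lamp5 class. The Vip comparison was not run for too few nuclei.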

Other observations

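Vip inhibitory nuclei, too few for a comparison (56, 107, 23 and 33 per library), held 620.0, 565, 687 and 528 CPM of Cadps2 and 134, 147, 215 and 129.7 CPM of Cplx2. Their Rims3 stood at 54.2, 45.4, 49.6 and 71.6 CPM, and Syt2 had at most 1 UMI in any library.

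Nuclei with medium spiny markers numbered 34 in the wild-type and 349 in the total knockout library. In these libraries, wild type first, Unc13c stood at 413 and 632 CPM, Sv2c at 181 and 235 CPM, Sv2b at 144 and 130.0 CPM and Doc2b at 49 and 55 CPM. No test was run on these values.

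In dentate granule neurons of the 3 libraries that held both kinds of nuclei, Cplx1 was higher in nuclei with Xist and no Y-linked UMIs than in nuclei with Y-linked UMIs and no Xist, at 21.7 against 16 CPM in wild type, 24.7 against 17.9 CPM in the astrocyte and 19 against 15.6 CPM in the neuron knockout library. Stx1a differed the same way, at 14.6 against 10.7 CPM, 13 against 11.3 CPM and 15.1 against 10.8 CPM. Both were picked after all members had been looked at, no test was run, and the labels give no number of animals of either sex.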
